A study of Homo sapiens with 8 samples.

Results

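Forkhead genes encode transcription factors that share the winged-helix DNA-binding domain, and their symbols run from FOXA to FOXS. The members described here are the rows of the deposited count table whose symbol is FOX, 1 letter from A to S and a number with its suffix, without antisense genes. They number 50 of the 32803 gene symbols of the table. Of the 50, 30 were among the 16221 genes that held enough counts to be tested, and the other 20 are given by their raw counts.

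Most forkhead proteins bind a related core motif, yet the subfamilies do different work. FOXA proteins open closed chromatin ahead of other factors. FOXO proteins act in the nucleus when insulin and growth factor signalling is low, because AKT phosphorylation moves them to the cytoplasm. FOXM1 drives the genes of mitosis and is highly active in many serous ovarian carcinomas. FOXC, FOXF and FOXL1 act in mesenchyme, FOXJ1 switches on the genes of motile cilia, and FOXL2 maintains ovarian granulosa cells.

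The cells were UWB1.289, an established human ovarian carcinoma line without functional BRCA1, UWB1.289+BRCA1, into which BRCA1 was put back, and a derivative of each that resists inhibitors of poly(ADP-ribose) polymerase (PARP), named Olres-UWB1.289 and Olres-UWB1.289+BRCA1. Below they are called parental deficient (passage 29), resistant deficient (passage 56), parental proficient (passage 10) and resistant proficient (passage 45), after their BRCA1 state. Each group held 2 libraries of total RNA from cells grown in medium without drug. Resistance and passage change together, so their effects cannot be told apart. Each proficient group was also at a lower passage than its deficient counterpart, so BRCA1 state cannot be told apart from passage either. The labels do not say whether a resistant line was 1 clone or whether replicates were separate cultures. P-values therefore measure the spread between these libraries, which may be technical.

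The libraries held 24094821 to 34394107 counts, of which 20900 to 30427 fell on forkhead genes. BRCA1 stood at 34.7 to 36.1 CPM (counts scaled to a common library size, on TMM-scaled totals) in the 4 deficient libraries. It stood at 191 and 212 CPM in the parental proficient and at 2176 and 2365 CPM in the resistant proficient libraries. Every proficient library was thus above every deficient one, as labelled. The labels do not account for the gap between the proficient groups. In the proficient line, resistance therefore cannot be told apart from this higher BRCA1 level. Of 14 ovarian carcinoma markers, 12 to 14 reached 1 CPM in every library, while 5 to 8 of 12 leukocyte markers were at 0. Genes above 56% GC, where forkhead genes mostly lie (median 56.8% GC for the 30 tested members, 48.1% for all genes), stood above the mean of all libraries by 1.02 and 0.65 on the log2 scale in the resistant deficient libraries. They stood below it in the proficient libraries, by 0.30 to 0.59 (medians of -0.59 to -0.30). For forkhead genes a value with this GC trend removed is therefore given where it ends a call, turns a direction or moves a fold by over 1.5 times.

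Per kilobase of exon, FOXJ3 and FOXM1 held more RNA than any other forkhead gene in every group. FOXJ3 had the highest level in the proficient groups, at 35.8 and 25.5 CPM per kb, and FOXM1 the highest in the deficient groups, at 20.7 and 18.3 CPM per kb (parental first; FOXJ3 there 16.8 and 15.3). FOXO1 ranged over the groups from 8.79 to 16.7 CPM per kb, FOXO3 from 8.43 to 13.0 and FOXC1, a developmental factor of mesenchyme and eye, from 3.75 to 13.7. At the other end, FOXB2, FOXD4L3, FOXD4L4, FOXF1, FOXI1, FOXI2, FOXN1 and FOXR2 held 0 counts in all 8 libraries. Where a group held 0 counts, a floor of 3 counts over the group is used below to bound a fold. Such a bound takes the count of the higher group as observed, without its counting error. The bounds and the exact intervals treat each count as independent and cover no spread beyond counting error. Whether both mates of a read pair were counted is not given. If they were, the intervals would be too narrow and the bounds too high.

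**Figure D1:**
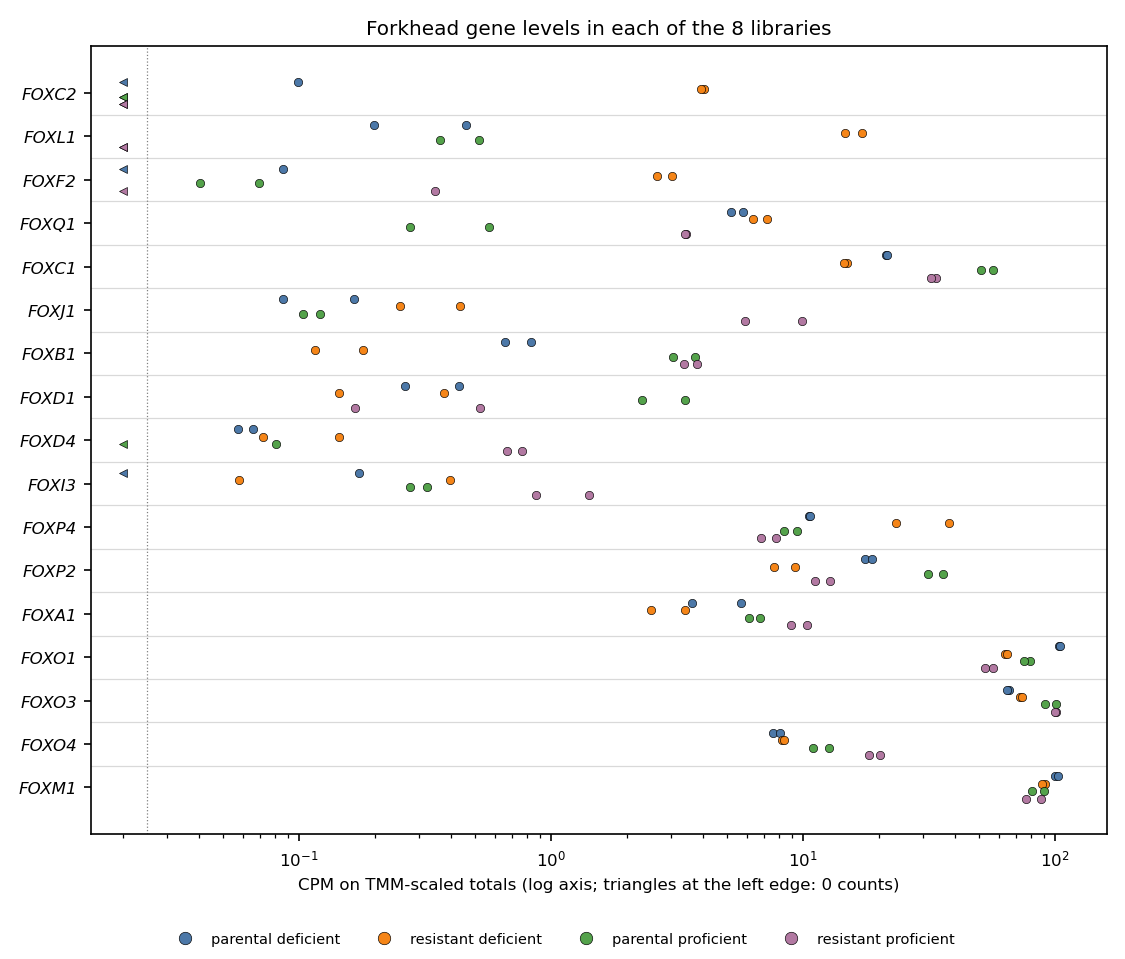
Level of 17 forkhead genes in each of the 8 libraries, in CPM on TMM-scaled totals on a log axis, with 1 point per library coloured by group and triangles for libraries at 0 counts. FOXC2 and FOXL1 stand far above the other groups in the resistant deficient libraries only (FOXL1 at 17.1 and 14.6 CPM), FOXJ1 in the resistant proficient libraries only (9.85 and 5.87 CPM), and the FOXO genes and FOXM1 differ little by comparison.

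The share of forkhead genes that changed with resistance was near that of all genes. In BRCA1-deficient cells 6 of the 30 tested members rose, where 28.9% of all tested genes did, and 10 fell, where 27% did (edgeR, adjusted p under 0.05 over all tested genes). Without parental deficient replicate 2, 6 rather than 10 members fell. In BRCA1-proficient cells 7 rose (25.9% of all genes) and 10 fell (27.8%). Either way, 16 of 30 members were called in deficient cells (55.8% of all genes) and 17 of 30 in proficient cells (53.7%). The members' median log2 fold change was 0.003 in the deficient and 0.032 in the proficient comparison, against 0.026 and -0.002 for all genes. The share changed at least 2-fold was also near that of all genes, with 7 of 30 members in deficient (19.6% of all genes) and 7 of 30 in proficient cells (20.1%). The largest fitted values were those of FOXC2, FOXF2 and FOXL1 in deficient and FOXL1 and FOXJ1 in proficient cells, genes of developmental or ciliated tissues. FOXC2 and FOXF2 held enough counts to be tested only through the resistant deficient libraries. FOXJ1, FOXD4 and FOXI3 did so only through the resistant proficient ones. The direction of these genes against the other groups was thus largely fixed by the filter, and their p-values are no independent evidence of it.

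**Figure D2:**
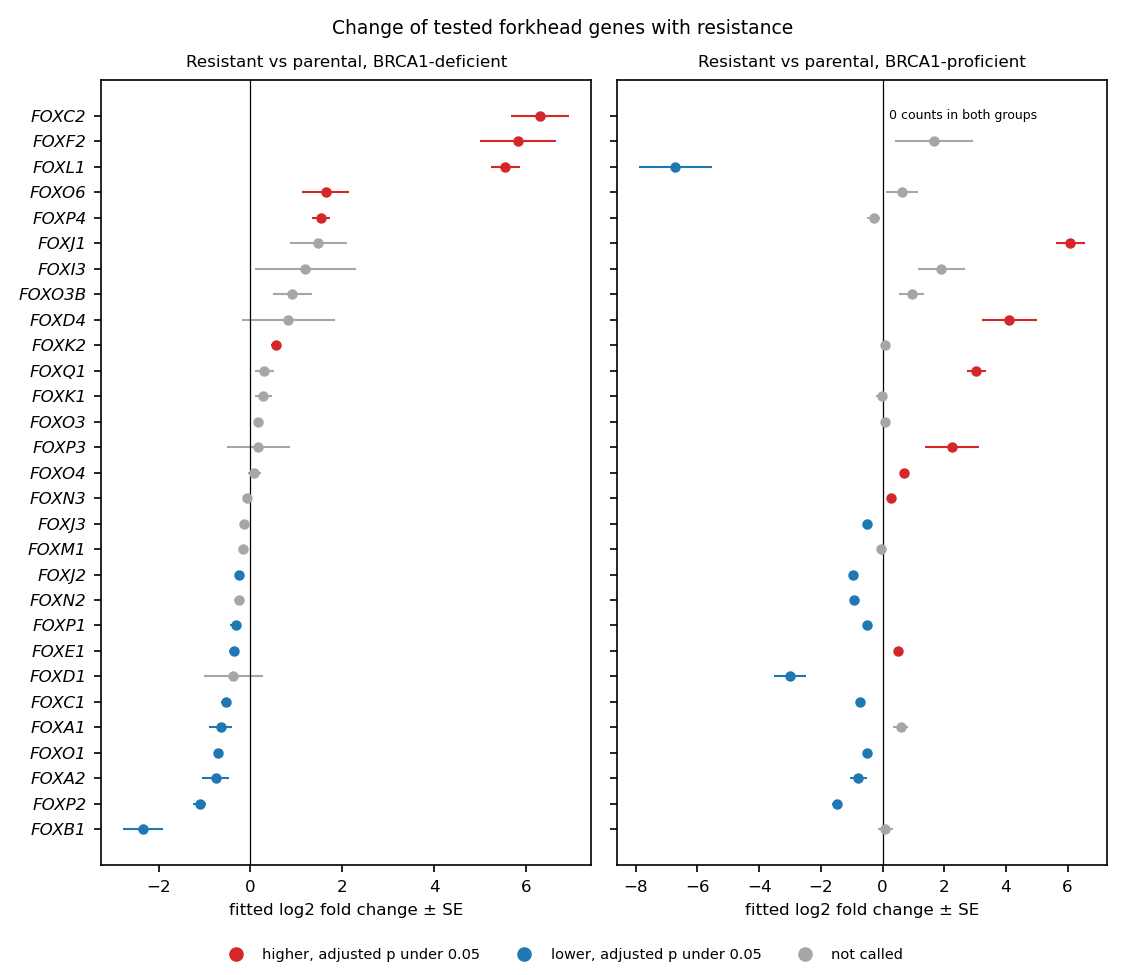
Fitted log2 fold change with its SE of tested forkhead genes between resistant and parental cells, BRCA1-deficient at left and BRCA1-proficient at right, in the order of the left panel. FOXC2 (6.30), FOXF2 (5.82) and FOXL1 (5.55) lead the deficient comparison, and FOXJ1 (6.09) leads the proficient one, where FOXL1 falls from 24 counts to 0.

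FOXC2 and FOXL1, neighbours on chromosome 16 whose starts lie 9.5 kb apart, were near 0 in parental cells and clearly detected in resistant deficient cells. FOXC2 acts in lymphatic and mesenchymal development. It held 3 and 0 counts in the parental deficient libraries and 112 and 136 in the resistant deficient ones (4.03 and 3.93 CPM), and 0 in all 4 proficient libraries. The groups did not overlap: the ratio of resistant to parental deficient was 86.5 (exact 95% interval 29.3 to 422), with a log2 fold change of 6.30 ± 0.63 (SE, edgeR adjusted p = 4.15e-05), or 5.50 with the GC trend removed. Against the resistant proficient libraries the level was at least 70.1-fold higher, given that floor.

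FOXL1, a factor of gut and other mesenchyme, stood at 0.197 and 0.459 CPM in the parental deficient and at 17.1 and 14.6 CPM in the resistant deficient libraries. This was a rise of 5.55 ± 0.32 on the log2 scale (edgeR adjusted p = 6.23e-07). In the proficient line it went the other way. The parental proficient libraries held 9 and 15 FOXL1 counts (0.363 and 0.519 CPM) and the resistant proficient ones 0 and 0, at least 7.87-fold lower (edgeR adjusted p = 0.000786). Both resistant groups thus differed from parental cells that had started at overlapping levels, in opposite directions, and the difference between the 2 resistance effects passed its own test (adjusted p = 6.79e-06). Its fitted size of -12.26 rests on a group at 0 and is no bound.

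The region around both genes was partly silent. FOXF1, 56.3 kb from FOXC2 and a lung and gut mesenchyme factor, and its divergent long non-coding RNA FENDRR held 0 counts in every library. FLJ30679, which starts 11.5 kb from FOXC2, held 37 counts in the resistant deficient group and 0 in the parental deficient group. It held 2 counts in the parental proficient and 8 in the resistant proficient group. FOXC2-AS1, which overlaps FOXC2 by 933 bases on the opposite strand, held 18 counts in resistant deficient cells and 0 in each other group. The counting's strand setting is not given in the sources used here, so reads of FOXC2 and its antisense partner cannot be told apart. MTHFSD, a neighbour 36.7 kb away, rose with resistance in the deficient line by 0.89 ± 0.13 on the log2 scale (edgeR adjusted p = 0.000168). That is far less than FOXC2 and FOXL1. Farther off, C16orf95 (516.7 kb from FOXC2) and FBXO31 (760.2 kb) also rose there, by 1.435 and 0.834 (edgeR adjusted p = 0.000427 and 0.000894). The values of MTHFSD, C16orf95 and FBXO31 still hold the GC trend. Its part in those of C16orf95 and FBXO31 was not tested.

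**Figure D3:**
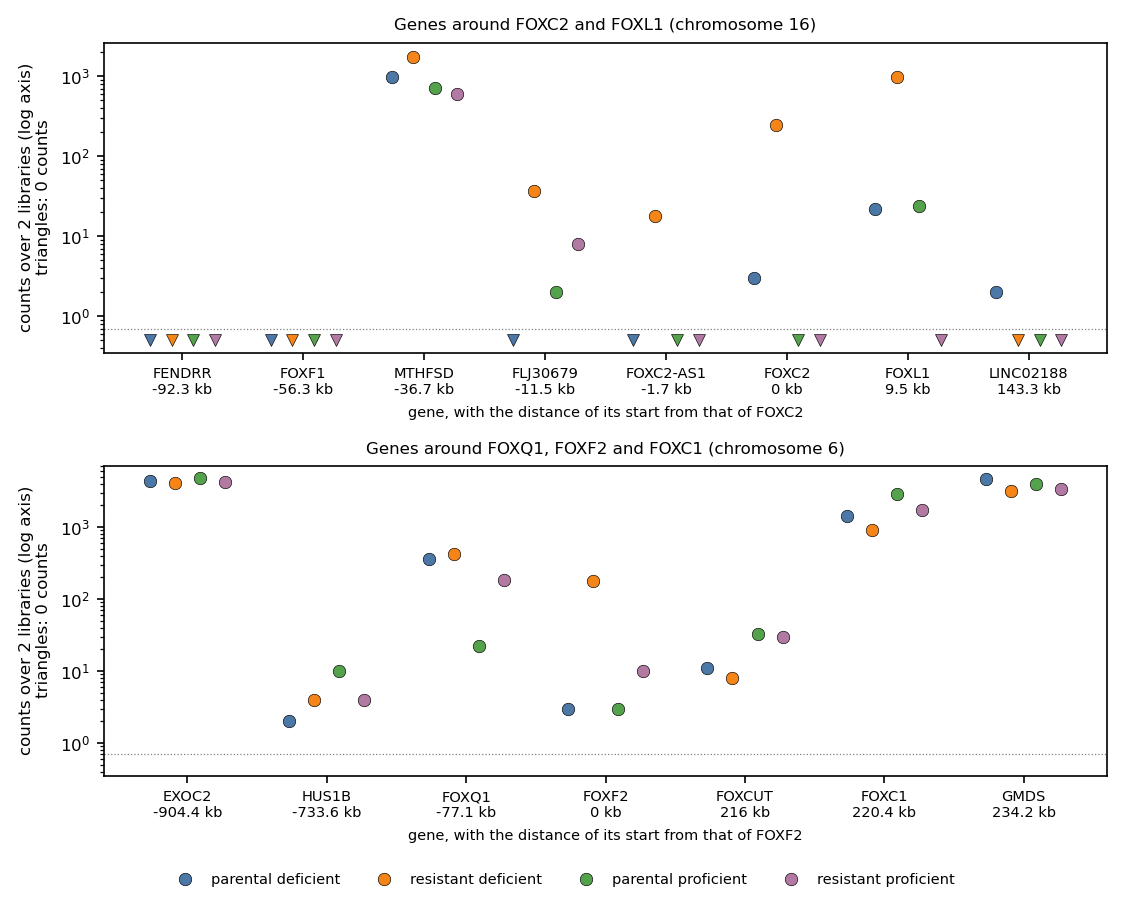
Counts summed over the 2 libraries of each group (log axis, triangles for 0) for genes around FOXC2 and FOXL1 on chromosome 16 (top) and around FOXQ1, FOXF2 and FOXC1 on chromosome 6 (bottom), labelled with the distance of their starts. FOXC2 (248 counts) and FOXL1 (981) stand high in the resistant deficient group beside FOXF1 at 0, and FOXF2 (177) stands high there between FOXQ1 and FOXC1, which do not follow it.

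A second cluster, on chromosome 6, holds FOXQ1, FOXF2 and FOXC1 within 297.5 kb, and its members moved independently. Their promoters are shown because the 3 genes lie side by side and responded differently. They are the 250 bases before each RefSeq start on the plus strand of GRCh38.p14, at chr6:1311848-1312097 (FOXQ1), chr6:1389326-1389575 (FOXF2) and chr6:1609665-1609914 (FOXC1). Capitals mark GC boxes (GGGCGG or its reverse complement) and CCAAT boxes (CCAAT or its reverse complement).
FOXQ1: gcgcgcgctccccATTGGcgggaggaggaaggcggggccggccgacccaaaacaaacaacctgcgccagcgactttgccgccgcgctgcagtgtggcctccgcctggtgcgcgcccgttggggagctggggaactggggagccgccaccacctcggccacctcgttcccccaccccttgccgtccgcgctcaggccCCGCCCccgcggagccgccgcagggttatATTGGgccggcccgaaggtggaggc
FOXF2: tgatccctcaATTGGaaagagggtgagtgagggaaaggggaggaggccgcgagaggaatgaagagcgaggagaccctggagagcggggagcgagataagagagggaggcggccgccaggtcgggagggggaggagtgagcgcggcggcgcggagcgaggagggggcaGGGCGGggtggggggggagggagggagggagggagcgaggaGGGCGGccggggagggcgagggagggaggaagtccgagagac
FOXC1: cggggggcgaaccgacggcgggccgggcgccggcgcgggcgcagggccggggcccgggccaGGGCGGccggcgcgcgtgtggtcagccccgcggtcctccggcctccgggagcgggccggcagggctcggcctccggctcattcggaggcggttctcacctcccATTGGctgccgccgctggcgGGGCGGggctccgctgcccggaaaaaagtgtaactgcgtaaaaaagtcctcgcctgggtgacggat
Each carries both elements: 1 GC box and 2 CCAAT boxes in FOXQ1, 2 and 1 in FOXF2, and 2 and 1 in FOXC1. None holds TATAAA or the exact forkhead core TGTTTAC on either strand. Variants of that core were not searched.

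FOXF2, a mesenchymal factor, behaved like FOXC2. It held 0 and 3 counts in the parental deficient and 73 and 104 in the resistant deficient libraries (2.63 and 3.01 CPM), with 1 and 2 in the parental and 10 and 0 in the resistant proficient ones. Only the resistant deficient libraries stood clear of the rest. The ratio to parental deficient was 61.8 (exact 95% interval 20.8 to 302) and the log2 fold change 5.82 ± 0.83 (edgeR adjusted p = 0.000162), or 4.98 with the GC trend removed. In proficient cells the change was not called (1.67 ± 1.26, adjusted p = 0.291), but without resistant proficient replicate 2, the library at 0, it was (2.59, adjusted p = 0.0483). The test of the difference between both resistance effects missed the threshold (-4.15, adjusted p = 0.114, and -3.32 with the GC trend removed). Without resistant proficient replicate 1, the library with 10 counts, the fitted difference was -9.59. That fit left 1 resistant proficient library, at 0 counts, so the value is no bound.

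FOXQ1, an epithelial factor linked to epithelial-mesenchymal transition, showed the reverse arrangement. In CPM it stood at 5.79 and 5.16 in parental deficient, 7.17 and 6.33 in resistant deficient, 0.564 and 0.277 in parental proficient and 3.44 and 3.41 in resistant proficient libraries. The parental proficient cells were the low group, 13.2-fold below parental deficient (-3.72 ± 0.29, edgeR adjusted p = 1.21e-06, or -3.08 with the GC trend removed). FOXQ1 was 8.24-fold higher in resistant than in parental proficient cells (3.04 ± 0.31, adjusted p = 8.87e-06). In deficient cells the log2 fold change was 0.30 ± 0.21 (adjusted p = 0.247), and the effects differed between the backgrounds (2.74 ± 0.38, adjusted p = 0.000161). The value in deficient cells turns to -0.43 (adjusted p = 0.0702) and the difference is 3.45 with the GC trend removed.

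FOXC1 fell with resistance in both backgrounds. Its levels were 21.3 and 21.4 CPM in parental deficient, 15 and 14.5 in resistant deficient, 56.9 and 51.0 in parental proficient and 33.5 and 32.2 in resistant proficient libraries. No 2 groups overlapped, and the order was the same at each step: lower in the resistant line, higher in the BRCA1-proficient line. The falls were 1.45-fold (-0.54 ± 0.10, edgeR adjusted p = 0.00092) and 1.64-fold (-0.71 ± 0.10, adjusted p = 7.88e-05), and their difference was not called (-0.18 ± 0.14, adjusted p = 0.318). FOXCUT, the non-coding gene 4.4 kb upstream, held 11, 8, 33 and 30 counts in the same order of groups. GMDS, the next coding gene, changed by -0.50 (adjusted p = 0.000134) and -0.23 (adjusted p = 0.0146, and 0.0621 to 0.134 without parental deficient replicate 2 or any 1 of the 4 proficient libraries).

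Genes of mesenchymal state that FOXC, FOXF and FOXQ proteins are linked to moved in both directions. Of 15 tested, 6 rose and 3 fell in resistant deficient cells and 5 rose and 3 fell in resistant proficient cells, 9 and 8 in all (55.8% and 53.7% of all genes), with median log2 fold changes of 0.91 and 0.01 (all genes 0.03 and -0.002). Vimentin (VIM), an intermediate filament of mesenchymal cells, rose by 0.91 ± 0.06 and 4.09 ± 0.07, and N-cadherin (CDH2) by 1.05 ± 0.07 and 0.56 ± 0.07. SNAI2, a repressor of E-cadherin, rose in deficient cells (2.34 ± 0.27). Fibronectin (FN1) fell in both, by 0.75 and 5.52 on the log2 scale, and E-cadherin (CDH1) rose in proficient cells (0.99 ± 0.07). Summed over 10 fibroblast markers, of which 3 to 5 were at 0 in each library, the level was 62.9 to 72.4 CPM in parental deficient, 12.4 to 19.8 in resistant deficient, 49.7 to 49.8 in parental proficient and 31.5 to 32.0 CPM in resistant proficient libraries. Single fibroblast markers went different ways: in deficient cells the collagen gene COL1A2 fell by 5.71 on the log2 scale and COL1A1 rose by 1.81. Summed over 8 endothelial markers, of which 0 to 2 were at 0, it was 53.9 to 56, 63.1 to 65.6, 15.8 to 17.1 and 26.9 to 28.1 CPM in the same order. The part of either in these results was not tested.

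FOXJ1, the master factor of motile cilia and a marker of ciliated cells of the fallopian tube, appeared in resistant proficient cells. It held 5 and 3 counts in parental deficient, 7 and 15 in resistant deficient, 3 and 3 in parental proficient, and 284 and 141 in resistant proficient libraries (9.85 and 5.87 CPM). The last group stood apart from all others, although its 2 libraries differed from each other. The rise was 68.0-fold (6.09 ± 0.47, edgeR adjusted p = 1.11e-06). In deficient cells it was 1.48 ± 0.62 (adjusted p = 0.064) and 0.43 with the GC trend removed, and the effects differed by 4.61 ± 0.97 (adjusted p = 0.00266), or 5.70 with the GC trend removed. RNF157-AS1 overlaps FOXJ1 by 744 bases on the opposite strand and rose with it in proficient cells (3.48, edgeR adjusted p = 3.62e-06). Its value in deficient cells was 0.26 (adjusted p = 0.518), its counts were 49, 57, 27 and 301 in the order used above, and the 2 genes cannot be fully told apart without strand. RNF157, 6.1 kb away, differs from that pattern, with log2 fold changes of 2.13 in deficient and 1.63 in proficient cells.

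Of 14 tested genes of the ciliary programme, 7 rose and 1 fell in resistant proficient cells (median 0.52, all genes -0.002), and 3 rose and 5 fell in resistant deficient cells (median 0.40, all genes 0.03). That is 8 of 14 in each, beside 53.7% and 55.8% of all genes. SPAG6 and RSPH4A, parts of the ciliary axoneme, rose by 3.11 ± 0.51 and 2.60 ± 0.50 in proficient cells, from 13 and 10 counts to 114 and 60. TUBB4B, a tubulin of cilia and many other microtubules, rose in both backgrounds (0.67 ± 0.14 and, in deficient cells, 0.65 ± 0.13). MYB, which acts before FOXJ1 in ciliated cells, fell in both (-1.69 ± 0.12 and -0.58 ± 0.11). GMNC, which starts multiciliation, held 2 counts in resistant proficient cells and 0 elsewhere, and the dynein gene DNAH9 held 2 counts in parental deficient cells and 0 elsewhere. In deficient cells RFX3, a ciliary regulator, and DNAH11 fell (-1.06 ± 0.16 and -1.93 ± 0.32).

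FOXJ2 and FOXJ3 share the FOXJ name but not the pattern. Both are widely expressed and both were about 2-fold higher in parental proficient than in parental deficient cells (0.999 ± 0.07 and 1.09 ± 0.07, edgeR adjusted p = 8.19e-07 and 1.84e-07). FOXJ2 stood at 89.0 and 87.2 CPM in parental proficient cells and fell with resistance to 45.3 and 45.2 CPM (-0.96 ± 0.08, adjusted p = 1.29e-06). In deficient cells it changed from 45.5 and 42.6 to 37.0 and 37.2 CPM (-0.25, adjusted p = 0.016, and 0.123 without parental deficient replicate 1). FOXJ3 fell with resistance in the proficient line, from 257 and 236 CPM to 174 and 178 (-0.49 ± 0.07, adjusted p = 8.18e-05). Its log2 fold change in deficient cells was -0.13 (adjusted p = 0.11), which turns to 0.18 (adjusted p = 0.00932) with the GC trend removed.

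The FOXO genes, effectors of PI3K-AKT signalling, changed modestly and not together. FOXO1 was at 104 and 105 CPM in parental deficient, 63.2 and 64.7 in resistant deficient, 79.4 and 75.4 in parental proficient and 56.9 and 52.7 CPM in resistant proficient libraries. Both resistant groups lay below their parental groups without overlap, 1.63-fold (-0.70 ± 0.07, edgeR adjusted p = 1.4e-05) and 1.41-fold (-0.50 ± 0.07, adjusted p = 0.000145). On the same chromosome 13, MRPS31, whose start lies 259.2 kb from that of FOXO1, changed by -1.10 in resistant proficient and by -0.06 in resistant deficient cells.

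FOXO3, which keeps ovarian follicles dormant, did not pass the test for resistance. It stood at 65.8 and 64.3 CPM in parental deficient, 72.3 and 73.9 in resistant deficient, 100 and 91.2 in parental proficient and 101 and 99.5 in resistant proficient libraries. The log2 fold changes were 0.17 ± 0.07 (edgeR adjusted p = 0.0643) and 0.06 ± 0.07 (adjusted p = 0.471), and the first is called with the GC trend removed (0.33, adjusted p = 0.000141). The BRCA1-proficient groups stood above the deficient ones both before (0.56 ± 0.07) and after resistance (0.45 ± 0.07).

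FOXO4 rose in the proficient comparison, from 12.6 and 10.9 to 18.2 and 20.2 CPM (0.70 ± 0.14, edgeR adjusted p = 0.00127). In deficient cells it stood at 7.60 and 8.06 before and 8.21 and 8.39 CPM after resistance (0.08 ± 0.14, adjusted p = 0.647, turning to -0.14 with the GC trend removed). The difference of the effects was 0.62 ± 0.20 (adjusted p = 0.0248), and 0.0539 to 0.103 without parental deficient replicate 2, parental proficient replicate 2 or resistant proficient replicate 2. FOXO6, a neuronal FOXO gene, held 10 and 6 counts in parental deficient, 24 and 24 in resistant deficient, 10 and 10 in parental proficient and 21 and 10 in resistant proficient libraries. Its rise in deficient cells (1.63 ± 0.52, adjusted p = 0.0197) becomes 0.08 (adjusted p = 0.91) with the GC trend removed, and is lost without parental deficient replicate 2 (1.20, adjusted p = 0.175) or resistant deficient replicate 1 (1.45, adjusted p = 0.0997). FOXO3B, a processed copy of FOXO3 within ZNF286B, held 105, 191, 122 and 226 counts and was called in no comparison. After removal of the GC trend it was called higher in proficient cells in the parental (1.09, edgeR adjusted p = 0.0462) and the resistant lines (1.64, adjusted p = 0.00149). Reads of FOXO3 and this copy could be split by the counting.

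Regulators of FOXO activity were called in both directions in nearly equal number. Of 27 tested, 7 rose and 9 fell in deficient and 9 rose and 10 fell in proficient cells, with medians of -0.039 and -0.003 (all genes 0.03 and -0.002). The 16 and 19 called in all stand beside 55.8% and 53.7% of all genes. The insulin receptor gene INSR, itself a FOXO target, rose in deficient cells by 2.10 ± 0.13, and PIK3CD, a catalytic PI3K subunit, by 1.65 ± 0.17. SGK1, which phosphorylates FOXO3, rose in proficient cells (1.16 ± 0.19), and SIRT1, a deacetylase of FOXO proteins, and STK4, a kinase that activates them, fell there (-1.08 ± 0.09 and -1.06 ± 0.08).

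Listed FOXO targets were also called in both directions. The list does not separate genes that FOXO proteins induce from genes they repress, so its counts and medians give no direction of FOXO activity. Of 24 tested, 7 rose and 10 fell in deficient (median -0.20) and 11 rose and 8 fell in proficient cells (median 0.13, all genes -0.002). Of all genes 28.9% rose and 27% fell in deficient (median 0.03) and 25.9% rose and 27.8% fell in proficient cells. In proficient cells the cell cycle inhibitor CDKN1A rose from 7.81 to 24.4 CPM (1.65 ± 0.16) and the stress gene SESN3 from 33.4 to 98.6 CPM (1.56 ± 0.10), while GADD45A, another stress gene, fell from 159 to 21.4 CPM (-2.90 ± 0.10). In deficient cells the apoptosis ligand TNFSF10 (-1.83 ± 0.22), the mitochondrial superoxide dismutase SOD2 (-0.97 ± 0.07) and the cell cycle inhibitor CDKN1B (-0.77 ± 0.10) fell, and cyclin D1 (CCND1) rose (0.75 ± 0.06).

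**Figure D4:**
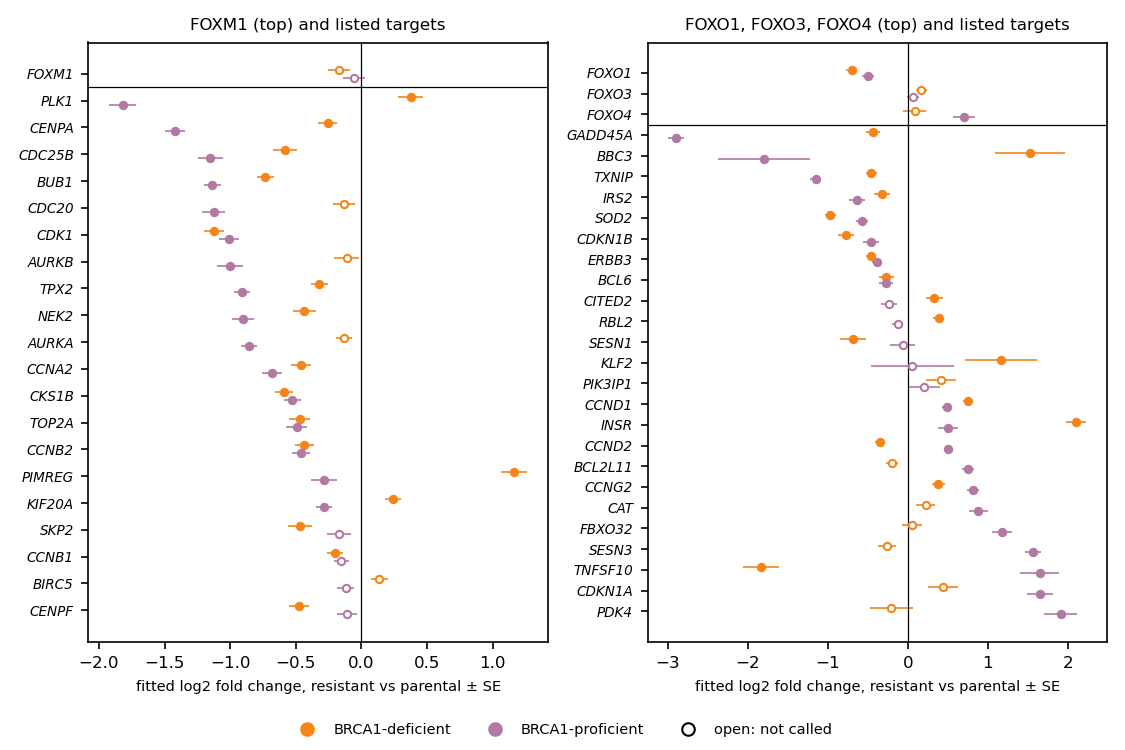
Fitted log2 fold change with its SE between resistant and parental cells in the BRCA1-deficient and BRCA1-proficient background for FOXM1 and 20 listed targets (left) and for FOXO1, FOXO3, FOXO4 and 24 listed targets (right); open points were not called. FOXM1 lies close to 0 (-0.17 and -0.06) above targets that lie mostly left of it, PLK1 reaching -1.82 in proficient cells, while FOXO targets spread to both sides.

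FOXM1 was among the most abundant forkhead genes in every group and was called in neither resistance comparison. Its levels were 99.7 and 103 CPM in parental deficient, 90.8 and 88.7 in resistant deficient, 81.3 and 89.9 in parental proficient and 88.0 and 76.4 CPM in resistant proficient libraries. The 2 proficient groups overlapped. The log2 fold changes with resistance were -0.17 ± 0.08 (edgeR adjusted p = 0.0959) and -0.06 ± 0.08 (adjusted p = 0.582), and both are called with the GC trend removed (-0.37, adjusted p = 3.62e-05, and -0.15, adjusted p = 0.0412). FOXM1 overlaps RHNO1 by 898 and ITFG2 by 2111 bases on the opposite strand.

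Most listed targets of FOXM1 fell. Of 20 tested, 13 fell and 3 rose in resistant deficient cells (median -0.38, all genes 0.03), and 16 fell and none rose in resistant proficient cells (median -0.77, all genes -0.002), where 27% and 27.8% of all genes fell. The mitotic kinase PLK1 went from 188 to 53.3 CPM in the proficient background (-1.82 ± 0.10, edgeR adjusted p = 1.11e-07), and its value in deficient cells was 0.37 ± 0.10 (adjusted p = 0.00652), or 0.06 (adjusted p = 0.343) with the GC trend removed. PLK1's rise there was also lost without parental deficient replicate 2 (0.33, adjusted p = 0.063) or resistant deficient replicate 1 (0.19, adjusted p = 0.0812). The centromere histone CENPA fell by 1.42 in proficient cells and the checkpoint kinase BUB1 by 1.14 in proficient and 0.73 in deficient cells. CDK1, the kinase of mitotic entry, fell in deficient cells (-1.12 ± 0.08).

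Genes of the DREAM and MYB-MuvB complexes, which act at the same mitotic promoters as FOXM1, fell in 8 of 12 cases and rose in none in proficient cells, and fell in 3 and rose in 2 in deficient cells (medians -0.56 and -0.03, and 27.8% and 27% of all genes fell). In proficient cells LIN9, a core subunit (-1.32 ± 0.10), and E2F5, a repressor subunit (-1.36 ± 0.12), led. In deficient cells TFDP1, the E2F dimer partner, dropped from 132 to 6.29 CPM (-4.38 ± 0.11, edgeR adjusted p = 6.18e-10), and in proficient cells from 68.4 to 40.8 CPM (-0.74 ± 0.09).

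FOXA1 and FOXA2, pioneer factors of endoderm, breast and prostate, were low in all groups. FOXA1 stood at 3.62 and 5.65 CPM in parental deficient, 2.48 and 3.41 in resistant deficient, 6.77 and 6.08 in parental proficient and 8.95 and 10.3 CPM in resistant proficient libraries. Its resistance effects pointed in opposite directions and differed by 1.23 ± 0.34 (edgeR adjusted p = 0.0118, and 0.0505 without parental deficient replicate 2). Neither effect was firm alone. The fall in deficient cells (-0.65 ± 0.25, adjusted p = 0.0435) was lost without any 1 of parental deficient replicate 2 (-0.32, adjusted p = 0.375), resistant deficient replicate 1 (-0.48, adjusted p = 0.159), parental proficient replicate 1 (-0.68, adjusted p = 0.0507) or parental proficient replicate 2 (-0.65, adjusted p = 0.0594). The value in proficient cells was 0.58 ± 0.23 (adjusted p = 0.0527), and it is called in 13 of the 18 alternative settings. Resistant proficient cells were 3.24-fold above resistant deficient cells (1.70 ± 0.24, adjusted p = 6.79e-05).

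FOXA2 stood at 3.95 and 3.39, 2.92 and 1.48, 4.80 and 4.91, and 3.05 and 2.58 CPM in the same order. It was lower in both resistant groups, with log2 fold changes of -0.76 ± 0.29 (edgeR adjusted p = 0.0449) and -0.78 ± 0.29 (adjusted p = 0.0381), and both calls are fragile. The first is lost without either parental deficient library, either parental proficient library or resistant deficient replicate 2 (-0.36, adjusted p = 0.27), and the second without parental deficient replicate 2 or any 1 of the 4 proficient libraries (adjusted p = 0.0614 to 0.179). FOXA3 held 2 counts or fewer in every library.

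Of 9 tested partners of FOXA factors, 1 rose and 2 fell in deficient (55.8% of all genes were called) and 2 rose and 5 fell in proficient cells (53.7%). In proficient cells the estrogen receptor gene ESR1 fell from 173 to 29 counts (-2.54 ± 0.42) and GATA3 from 236 to 37 counts (-2.64 ± 0.36), while GATA4 (1.87 ± 0.28) rose. ESR1 held 2 and 6 counts over the parental and resistant deficient groups. XBP1, a secretory pathway factor, fell in both backgrounds (-0.84 ± 0.07 and -0.68 ± 0.06).

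Among the FOXP repressors of neural, lung and lymphoid development, FOXP2 fell in both backgrounds and FOXP4 rose in deficient cells. FOXP1 fell in proficient cells, and its fall in deficient cells was lost with the GC trend removed. FOXP2, known for its part in speech circuits, fell in both backgrounds: 17.6 and 18.8 CPM to 7.67 and 9.28 in deficient cells (2.15-fold, -1.10 ± 0.14, edgeR adjusted p = 7.48e-05), and 35.8 and 31.4 to 12.8 and 11.2 in proficient cells (2.80-fold, -1.49 ± 0.14, adjusted p = 5.03e-06). No resistant library overlapped its parental group. With the GC trend removed the first value is -0.69 and remains called.

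FOXP4, a close relative, rose in resistant deficient cells alone. It stood at 10.5 and 10.6 CPM in parental deficient, 37.9 and 23.4 in resistant deficient, 9.43 and 8.40 in parental proficient and 7.77 and 6.83 CPM in resistant proficient libraries. The resistant deficient group was the high one, and its 2 libraries differed by more than those of any other group. The rise was 2.89-fold (1.53 ± 0.20, edgeR adjusted p = 9.14e-05) and 0.70 on the log2 scale with the GC trend removed (adjusted p = 0.000197). The difference from the proficient effect was -1.82 ± 0.29 (adjusted p = 0.000493), or -1.01 with the GC trend removed. Genes next to FOXP4 shared its direction in deficient cells: MDFI by 1.16 and FRS3 by 1.05 on the log2 scale. These values still hold the GC trend, and its part in them was not tested.

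FOXP1 stood at 18.1 and 19.3, 13.8 and 16, 26.1 and 25.9, and 18.1 and 18.6 CPM in the order parental deficient, resistant deficient, parental proficient, resistant proficient. It fell in proficient cells (-0.50 ± 0.12, edgeR adjusted p = 0.00356). In deficient cells the value was -0.33 ± 0.12 (adjusted p = 0.0341), which becomes 0.02 with the GC trend removed (adjusted p = 0.904) and misses the threshold without either deficient parental library, resistant deficient replicate 1 or parental proficient replicate 2 (adjusted p = 0.0543 to 0.138). FOXP3, the factor of regulatory T cells, held 6 and 11, 10 and 8, 2 and 2, and 16 and 4 counts in the same order. Its value in proficient cells, 2.26 ± 0.88 (adjusted p = 0.0486), was lost without any 1 of the 8 libraries (adjusted p = 0.0516 to 0.463), the largest change coming without resistant proficient replicate 1, which held 16 of the 20 counts (1.17). The T cell marker CD3E held 2 counts in resistant deficient cells and 0 in the other groups.

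Of 10 tested partners of FOXP proteins, 4 rose and 1 fell in deficient (55.8% of all genes were called) and 4 rose and 6 fell in proficient cells (53.7%). In proficient cells the nuclear receptor gene NR2F1 rose by 3.06 ± 0.41, while its relative NR2F2 fell by 1.83 on the log2 scale.

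FOXK1 and FOXK2, which recruit the BAP1 deubiquitinase and SIN3 repressor complexes, differed by background. FOXK1 stood at 21.9 and 17.5 CPM in parental deficient, 28.2 and 19.8 in resistant deficient, 11 and 13.0 in parental proficient and 11.8 and 11.7 CPM in resistant proficient libraries. Its values with resistance were 0.28 ± 0.17 (edgeR adjusted p = 0.192, 0.0169 without resistant deficient replicate 2, and turning to -0.06 with the GC trend removed) and -0.03 ± 0.19 (adjusted p = 0.904), neither called. FOXK1 was lower in proficient cells before (-0.71 ± 0.18, adjusted p = 0.00508, and 0.0562 without parental deficient replicate 1) and after resistance (-1.03 ± 0.18, adjusted p = 0.000332). With the GC trend removed these are -0.27 (adjusted p = 0.0785) and -0.33 (adjusted p = 0.0331).

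FOXK2 stood at 61.2 and 57.9, 96.8 and 77.8, 75.4 and 76.7, and 80.2 and 80.3 CPM in the same order. Deficient cells gained it with resistance (1.47-fold, 0.55 ± 0.10, edgeR adjusted p = 0.000584), and its value in proficient cells was 0.08 ± 0.10 (adjusted p = 0.518, turning to -0.01 with the GC trend removed). The difference between the effects (-0.47 ± 0.14, adjusted p = 0.0144) lost its call without parental deficient replicate 2, resistant deficient replicate 1 or any 1 of the 4 proficient libraries (adjusted p = 0.0526 to 0.109). Of 14 tested FOXK partners, 6 rose and 2 fell in deficient (55.8% of all genes were called) and 2 rose and 5 fell in proficient cells (53.7%). BAP1 rose in deficient cells by 0.90 ± 0.13, and the GlcNAc transferase OGT fell by 0.82 in each background.

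FOXN2 and FOXN3, widely expressed forkhead genes of checkpoint and developmental function, moved apart in proficient cells. FOXN2 fell from 76.0 and 73.5 to 37.6 and 40.9 CPM (1.90-fold, -0.93 ± 0.10, edgeR adjusted p = 2.15e-05), while FOXN3 rose from 128 and 125 to 155 and 151 CPM (1.21-fold, 0.27 ± 0.06, adjusted p = 0.0039). In deficient cells FOXN2 went from 44.8 and 52.7 to 37.7 and 43.9 CPM. The log2 fold change was -0.26 (adjusted p = 0.0557), or 0.23 (adjusted p = 0.00556) with the GC trend removed. FOXN3 changed there by -0.08 (adjusted p = 0.334), or 0.21 with the GC trend removed. FOXN3-AS1, which overlaps FOXN3 by 2440 bases on the opposite strand, rose in proficient cells from 31 to 142 counts (2.22 ± 0.30). FOXN4, a factor of retinal and spinal interneurons, held 0 and 7 counts in parental and resistant cells of both backgrounds.

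Among the remaining developmental genes, FOXB1, FOXD1 and FOXE1 differed in their resistance effect between the BRCA1 backgrounds. FOXB1, of the diencephalon, stood at 0.658 and 0.832 CPM in parental deficient, 0.18 and 0.116 in resistant deficient, 3.71 and 3.04 in parental proficient and 3.78 and 3.37 CPM in resistant proficient libraries. It fell 5.05-fold with resistance in deficient cells (-2.34 ± 0.43, edgeR adjusted p = 0.000886), from 49 to 9 counts. In proficient cells the value was 0.09 ± 0.25 (adjusted p = 0.785), the 2 groups overlapped, and the effects differed by 2.42 ± 0.50 (adjusted p = 0.00241).

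FOXD1, a stromal factor of kidney and retina, was highest in parental proficient cells. Its counts were 8 and 15 in parental deficient, 4 and 13 in resistant deficient, 57 and 98 in parental proficient and 15 and 4 in resistant proficient libraries. The fall with resistance in proficient cells was 7.95-fold (-2.99 ± 0.52, edgeR adjusted p = 0.000509), against -0.38 ± 0.64 (adjusted p = 0.647) in deficient cells, where it is -1.43 (adjusted p = 0.0649) with the GC trend removed. The difference (-2.62 ± 0.85, adjusted p = 0.0266) lost its call with the GC trend removed (-1.55, adjusted p = 0.14) and without parental deficient replicate 1, parental proficient replicate 2, resistant deficient replicate 2 or resistant proficient replicate 2 (adjusted p = 0.0731 to 0.278).

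FOXD4 held 2 and 2 counts in parental deficient, 2 and 5 in resistant deficient, 2 and 0 in parental proficient and 22 and 16 in resistant proficient libraries. The ratio of resistant to parental proficient was 19.3 (exact 95% interval 4.99 to 165, edgeR adjusted p = 0.00218). FOXD4 has near-identical copies, FOXD4L1 and FOXD4L3 to FOXD4L6, among which counting could split reads, so its level is uncertain. FOXD4L1 held 2, 0, 1 and 10 counts over the groups in that order, FOXD4L5 2 counts in resistant proficient cells and FOXD4L6 1 in resistant deficient cells.

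FOXE1, a thyroid factor, stood at 23.9 and 24.8, 19.4 and 18.6, 16.2 and 17.4, and 23.3 and 24.2 CPM in the same order. It was lower after resistance in deficient cells (-0.36 ± 0.11, edgeR adjusted p = 0.0134, and 0.0693 without parental deficient replicate 2), rose in resistant proficient cells (0.50 ± 0.11, adjusted p = 0.00224), and the effects differed (0.86 ± 0.15, adjusted p = 0.000843). With the GC trend removed the fall is -0.98. PTCSC2, a non-coding gene nearby, held 82, 156, 14 and 31 counts.

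FOXI3, of ear and epidermal development, held 0 and 6, 11 and 2, 8 and 8, and 25 and 34 counts in that order of groups, with a value of 1.91 ± 0.75 in proficient cells (edgeR adjusted p = 0.0517) that 11 of the 17 alternative settings that gave a value call.

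The untested members were near the floor. FOXD3, a neural crest factor, held 0, 19, 9 and 18 counts over the 4 groups in the same order, at least 6.63-fold higher in resistant than in parental deficient cells. Its antisense neighbour FOXD3-AS1, which overlaps it by 1401 bases, was higher throughout, with 2, 26, 46 and 259 counts, and rose in proficient cells (2.51 ± 0.34, edgeR adjusted p = 9.28e-05). FOXL2, the granulosa factor of the ovary, held 2, 5, 2 and 6 counts, near background in every group. FOXL2NB, 3.0 kb from it, held 16, 103, 8 and 87 counts and rose in both backgrounds (2.73 ± 0.55 and 3.43 ± 0.63). Granulosa genes AMH, CYP19A1 and FSHR held at most 4 counts in any group. FOXH1 held 2, 8, 0 and 2 counts, FOXR1 0, 4, 0 and 0, FOXS1 5, 2, 1 and 1, FOXE3 0, 3, 2 and 0, and FOXD2 0, 1, 0 and 0.

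The BRCA1 state was compared in the parental lines and again in the resistant ones. Of the 30 tested members, 12 were higher in parental proficient than in parental deficient cells, where 32.3% of all genes were, and 6 were lower, where 30.1% were, or 18 in all (62.4% of all genes). With the GC trend removed the split was 15 higher (29.5% of all genes) and 3 lower (33.4%). At 2-fold or more 6 of 30 members changed (24.8% of all genes). FOXD1 (3.01 ± 0.50, or 3.73 with the GC trend removed), FOXB1 (2.16 ± 0.28), FOXC1 (1.34 ± 0.10), FOXJ3 (1.09 ± 0.07) and FOXN3 (1.05 ± 0.06) were higher by as much, and FOXQ1 (-3.72 ± 0.29) was the 1 gene lower. Between the resistant lines 14 were higher in proficient cells (36.3% of all genes) and 7 lower (37.5%), or 21 in all (73.8%). At 2-fold or more 8 were higher and 5 lower, 13 of 30 members beside 40.4% of all genes. The 8 were FOXB1 (4.59 ± 0.37), FOXJ1 (4.48 ± 0.38), FOXD4 (2.64), FOXI3 (2.38), FOXA1, FOXN3 (1.40 ± 0.07), FOXO4 (1.21) and FOXC1 (1.16). FOXB1 is 5.29, FOXJ1 6.28, FOXD4 3.73 and FOXI3 3.06 with the GC trend removed. The 5 lower were FOXL1, at least 277-fold lower, FOXC2, FOXF2 (-3.89 ± 0.69, or -2.42 with the GC trend removed), FOXP4 and FOXK1. FOXP4 was 4.18-fold lower (-2.06 ± 0.21), or -0.59 with the GC trend removed. After that removal FOXD1 (2.18), FOXO6 (2.06), FOXO3B (1.64), FOXE1 (1.5) and FOXA2 (1.19) were also called higher at 2-fold or more. FOXN3 (0.87), FOXK1 (-0.33) and FOXP4 no longer reached 2-fold. The share of all genes called at 2-fold or more was not computed after that removal. At any size, 29.5% of all genes were then called higher and 44% lower, which is no match for these lists at 2-fold. These comparisons share libraries with the resistance comparisons.

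The resistance effect differed between BRCA1 backgrounds for 14 of 30 tested members, 7 higher (21.4% of all genes) and 7 lower (25.3%), which is 46.7% of the members beside 46.7% of all tested genes. It differed by 2-fold or more for 7 of 30 (22.7% of all genes). Higher in proficient cells were FOXJ1, FOXQ1, FOXB1, FOXA1, FOXE1, FOXO4 and FOXN3, and lower were FOXL1, FOXD1, FOXP4, FOXJ2, FOXN2, FOXK2 and FOXJ3. FOXC1, FOXO1, FOXP1, FOXP2 and FOXA2 fell in both backgrounds, and none of these 5 passed the test of a difference. With the GC trend removed FOXP1 (-0.47, edgeR adjusted p = 0.0069) and FOXP2 (-0.67, adjusted p = 0.00278) did, and FOXP1 then no longer fell in deficient cells. FOXJ2 fell in both and did pass it (-0.71 ± 0.11, edgeR adjusted p = 0.000281).

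The promoters of forkhead genes were richer in GC than most. RefSeq promoters of GRCh38.p14 were matched for 39 of the 50 members. Those without a match include FOXC2, FOXL1, FOXJ1 and FOXM1. Their 250 bases had a median GC content of 66.8%, against 58% over 27303 promoters, and a median ratio of observed to expected CpG of 0.792 against 0.556. GGGCGG, counted on both strands, was in 25 of 39 (42.3% of all promoters), and CCAAT in 9 of 39 (33%). TATAAA was in 6 of 39 (11.1%), namely FOXA3, FOXP3, FOXR2 and 3 of the FOXD4-like copies. Whether any of these elements goes with the level of a member was not tested. TGTTTAC, the exact form of the forkhead core that was searched, was in none of 39 (2.98%).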

How the data were processed

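Gene expression was measured by RNA-seq in 8 libraries of 4 groups, assigned from the sample titles. The deposited values are whole-number counts per gene symbol without normalisation. Per the submitters' processing notes, Trimmomatic 0.39, featureCounts, Subread 2.0.1, DESeq2 1.24.0 and the build GRCh37 were named. Annotation, strand setting, the rule for reads that match several places and the counting of paired ends are not given in those notes or the labels. In every library more genes held 2 counts (1058 to 1160) than 1 (543 to 659).

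The counts were fitted with edgeR 4.0.16 in R 4.3.3 (quasi-likelihood, TMM, filterByExpr, 1 fit over all 8 libraries, 4 residual degrees of freedom), and p-values were adjusted by Benjamini-Hochberg over all 16221 genes tested. A gene rose or fell where its adjusted p was under 0.05. Where only a fold change is printed for a listed gene, it passed that test. The SE of a log2 fold change is its size over the square root of F. The GC trend was removed per library by a natural spline with 5 degrees of freedom on GENCODE v29 transcript GC, which 96.5% of the genes tested and all 30 tested members have. Exon lengths, distances and overlaps come from the same GRCh38 annotation. Chi-square tests found no replicate pair alike within sampling noise (4.16 to 22.8 per degree of freedom, highest in resistant deficient).

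The members and lists were chosen with earlier results of these data known. Values in every library are given for tested members changed at least 2-fold in any pairwise comparison and for 12 well-known members, and listed genes are up to 3 per direction with the smallest p in each resistance comparison and at least 1 CPM. A few further genes (BRCA1, CD3E, GMNC, DNAH9, AMH, CYP19A1, FSHR, neighbours of members and members changed less) were added after their values were seen. Some genes taken by the rule, 1 tested member among them, are counted but not reported here. The other settings tried were library totals alone, RLE factors, a filter of 1 CPM in 2 libraries, no filter, DESeq2 1.42.0, the 2 groups alone, the replicate block, GC removal with and without it, each library left out and, chosen after seeing the data, counts halved. The steps were tested on simulated counts.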

Additional observations from a re-analysis of the deposited data

Results flagged for a closer look

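For 14 of the 30 tested members the resistance effect differed between BRCA1 backgrounds by the interaction term of the edgeR fit, given here as the proficient minus the deficient log2 fold change. It was higher in proficient cells for FOXJ1 (4.61, adjusted p = 0.00266, or 5.70 with the GC trend removed), FOXQ1 (2.74, adjusted p = 0.000161, or 3.45), FOXB1 (2.42, adjusted p = 0.00241), FOXA1 (1.23, adjusted p = 0.0118), FOXE1 (0.86, adjusted p = 0.000843), FOXO4 (0.62, adjusted p = 0.0248) and FOXN3 (0.35, adjusted p = 0.00906). FOXN3 becomes 0.10 (adjusted p = 0.394) with the GC trend removed.

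It was lower for FOXL1 (-12.26, adjusted p = 6.79e-06, a fitted value against a group at 0), FOXD1 (-2.62, adjusted p = 0.0266, or -1.55, adjusted p = 0.14, with the GC trend removed), FOXP4 (-1.82, adjusted p = 0.000493, or -1.01 in the same way), FOXJ2 (-0.71, adjusted p = 0.000281), FOXN2 (-0.67, adjusted p = 0.00328), FOXK2 (-0.47, adjusted p = 0.0144) and FOXJ3 (-0.36, adjusted p = 0.0092). FOXJ3 missed the threshold without parental proficient replicate 1 (-0.23, adjusted p = 0.12) or resistant proficient replicate 1 (-0.26, adjusted p = 0.0633).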

How the results depend on the processing

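Of 2576 values of member genes under 18 alternatives, 2353 kept their side of the threshold and, where called, their direction, 99 lost and 98 gained a call and 26 turned direction where called before or after, and 58 of 86 called results kept their call throughout. Leaving out libraries gave, for members higher and lower, 6 to 9 and 6 to 12 (resistant against parental deficient, the lower count without parental deficient replicate 2 and the upper ones without single resistant libraries), 6 to 9 and 9 to 10 (resistant against parental proficient), 12 to 13 and 4 to 6 (parental), 11 to 14 and 6 to 8 (resistant) and 5 to 8 and 5 to 6 (difference). A log2 fold change of at least 1 left 5 higher and 2 lower (deficient, 19.6% of all genes called), 4 and 3 (proficient, 20.1%), 5 and 1 (parental, 24.8%), 8 and 5 (resistant, 40.4%) and 4 and 3 (difference, 22.7%). Removing the GC trend, with or without the replicate block, left 3 lower members in the parental comparison, and moved the median of all genes by 0.185 in the deficient and -0.278 in the comparison of the resistant lines. Same-numbered replicates deviated together with correlations of -0.132 to 0.212, so the numbers were not taken as pairs; the replicate block alone gave 7 higher and 11 lower members in deficient and 9 and 10 in proficient cells.

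Values called before or after that turned direction did so under GC removal, with or without the block; turns between uncalled values are not listed. In resistant against parental deficient cells these were FOXJ3 0.18, FOXN2 0.23, FOXN3 0.21, FOXP1 0.0152, E2F4 -0.0509 (-0.051 with the block), LIN9 0.0663 (0.0661 with the block), GATA4 -0.12 (-0.11 with the block), CTBP1 -0.14 and MSLN -0.21 (-0.22 with the block). In the parental comparison they were FOXE1 0.0582 (0.0585 with the block), FOXM1 0.0827 (0.0825 with the block) and FOXP4 0.42, and between the resistant lines FOXK2 0.33, FOXM1 0.31, FOXO6 2.06 (2.04 with the block), FOXP1 -0.42, FOXP2 -0.26 (-0.27 with the block) and FOXQ1 0.38. The cause was not tested. Members under 10 counts in a group have wide intervals at this depth.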
